A study of Mus musculus with 6 samples.

Results

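The genes described here are those of the glucocorticoid receptor and a set of its known target genes in the mouse heart. They are Nr3c1, Nr3c2, Hsd11b1, Sgk1, Fkbp5, Tsc22d3, Zbtb16, Dusp1, Cebpd and Mt2, taken by gene symbol from the array's name table. These 10 genes, of 18193 named genes on the array, have 23 probe sets, which are groups of short probes that each report 1 transcript region. Left ventricles came from 6 male C57BL/6 mice, aged 6 months, that had been fed a high fat diet for 16 weeks. An agent labelled Lira was given to 3 of them and placebo to the other 3, with 1 array per mouse. The labels do not spell out Lira, so the name is kept, and they give no dose, no duration of dosing and no time of day of sampling. C57BL/6 is an inbred strain that becomes obese on such a diet, and no lean mice were analysed here, so the diet is shared by both groups.

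Glucocorticoids, which in mice are mainly corticosterone, are adrenal steroids released in a daily rhythm and under stress. They bind the glucocorticoid receptor, which then leaves its Hsp90 chaperone complex, enters the nucleus and binds palindromic response elements near its target genes. In the heart the closely related mineralocorticoid receptor binds the same steroids, and the enzyme encoded by Hsd11b1 regenerates active corticosterone from its inert keto form inside cells. Fkbp5, Tsc22d3, Sgk1 and Zbtb16 are widely used readouts of receptor activity. Dusp1, Cebpd and Mt2 are also induced by other stimuli, such as stress kinases, cytokines and metals.

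Exact matches to the full palindromic response element were looked for in the 250 bases before the annotated starts of the members. RefSeq promoter windows of build GRCm38.p6 were at hand for 7 of the 10 genes, with 14 windows, since Sgk1 and Tsc22d3 have several starts. Nr3c1, Zbtb16 and Cebpd had no window and were not searched. The full palindrome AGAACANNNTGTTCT was found in 1 of the 14 windows, that of an Sgk1 start, and in 3 of all 32851 windows, or 0.00913% of them. The 4 windows below are shown as examples: Sgk1 with the full element, Tsc22d3 with only the hexamer TGTTCT and Dusp1 and Mt2 with matches to patterns for other known inducers. Another 2 Sgk1 windows, not printed, also hold the hexamer. Each is written 5′ to 3′ on the strand of its gene. Capitals mark motif matches on either strand.
Sgk1, chr10:21993640-21993889, plus strand, with the full element and a further hexamer TGTTCT: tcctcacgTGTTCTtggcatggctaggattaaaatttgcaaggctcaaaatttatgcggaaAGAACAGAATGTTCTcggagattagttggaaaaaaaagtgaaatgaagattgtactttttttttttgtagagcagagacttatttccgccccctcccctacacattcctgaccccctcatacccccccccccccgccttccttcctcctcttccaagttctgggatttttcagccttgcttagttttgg
Tsc22d3, chrX:140600523-140600772, minus strand, with 1 hexamer TGTTCT: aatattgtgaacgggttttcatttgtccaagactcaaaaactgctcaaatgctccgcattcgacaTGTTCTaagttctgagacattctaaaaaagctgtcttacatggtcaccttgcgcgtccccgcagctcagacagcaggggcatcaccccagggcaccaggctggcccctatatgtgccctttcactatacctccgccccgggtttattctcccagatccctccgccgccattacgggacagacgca
Dusp1, chr17:26508473-26508722, minus strand, with the cAMP response element TGACGTCA: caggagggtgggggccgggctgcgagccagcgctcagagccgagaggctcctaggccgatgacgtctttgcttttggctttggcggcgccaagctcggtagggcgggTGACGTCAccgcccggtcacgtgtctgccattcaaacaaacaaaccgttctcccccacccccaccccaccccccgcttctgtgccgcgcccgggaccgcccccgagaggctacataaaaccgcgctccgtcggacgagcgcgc
Mt2, chr8:94172368-94172617, plus strand, with matches to the metal response element core TGCNCNC: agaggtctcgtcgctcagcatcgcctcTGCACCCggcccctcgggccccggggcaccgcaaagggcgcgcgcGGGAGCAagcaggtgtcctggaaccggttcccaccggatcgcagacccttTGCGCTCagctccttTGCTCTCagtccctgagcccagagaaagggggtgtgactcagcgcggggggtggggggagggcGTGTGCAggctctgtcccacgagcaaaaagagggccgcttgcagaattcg

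The Sgk1 element lies at chr10:21993701-21993715, 175 bases before the annotated start that this window precedes and 951 bases before the most downstream of the 6 annotated Sgk1 starts. The hexamer, which is also part of the full palindrome, is common, with a match in 16.1% of all windows and in 4 of the 14 member windows. The pattern TGCNCNC, used here for the metal response element core, allows any base at its N positions and is looser than that core. It matched 44.4% of all windows and 7 of the 14 member windows, and the Mt2 window holds 5 matches. A match to it, in Mt2 or elsewhere, need not be a metal response element. The cAMP response element was present in 1.55% of all windows and, among the members, in that of Dusp1. A match describes the letters of these windows and does not show that a factor binds there. Elements farther from a start, as known for Fkbp5 within its introns, lie outside the windows searched. Elements that differ from the full palindrome in any fixed letter were not looked for, so a window without an exact match may still hold one.

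Array signals are linear fluorescence units in which each array has a trimmed mean of 150, so changes are relative to the other genes and not per cell. In whole ventricle, fewer cells of a type and less RNA per cell cannot be told apart. Differences were tested in limma as Lira minus placebo on log2(signal + 16), a scale that understates the change of dim genes. Each gene was represented by its brightest probe set, and p-values were adjusted by the Benjamini-Hochberg method over 12735 genes. With 3 arrays per group the precision of each value is limited. Cardiomyocyte markers were bright on all arrays, with summed signals of 182790 to 226380 in the Lira group and 184170 to 194980 in the placebo group. One protocol field names blood as the source of RNA and the sample description names left ventricle, while the 5 of 8 red blood cell markers that have a probe set summed to 109 to 185 units with Lira and 115 to 254 with placebo. Probe sets shared by several genes were left out, so this sum may miss globin signal and does not measure blood content. The ratio of 3′ to 5′ signal of the Gapdh control probe sets, a sign of RNA integrity, was 0.782 to 0.830 with Lira and 0.780 to 0.828 with placebo. For the Actb control probe sets it was higher, at 1.63 to 1.74 with Lira and 1.55 to 1.67 with placebo.

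None of the 10 genes passed an adjusted p of 0.05, a threshold that 0.055% of all tested genes passed (7 of 12735, limma). Sgk1, Cebpd and Fkbp5 had lower mean signals with Lira, at 0.802, 0.766 and 0.765 times the placebo mean, and an unadjusted p under 0.05. These 3 of 10 genes compare with 3.13% of all tested genes that were lower at the same unadjusted threshold, and 0 of the 10 were higher at it, against 2.87% of all genes. None of the 10 had all Lira values above all placebo values, as 5.99% of all genes did. The receptor gene Nr3c1 and the targets Zbtb16, Dusp1 and Mt2 had almost equal group means. Over the 10 genes 7 differences were below 0 and 3 above, where 48.0% of all tested genes were below 0. Their median log2 difference was -0.03, beside 0.01 over all tested genes, and it became -0.21 without Lira replicate 3.

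**Figure D1:**
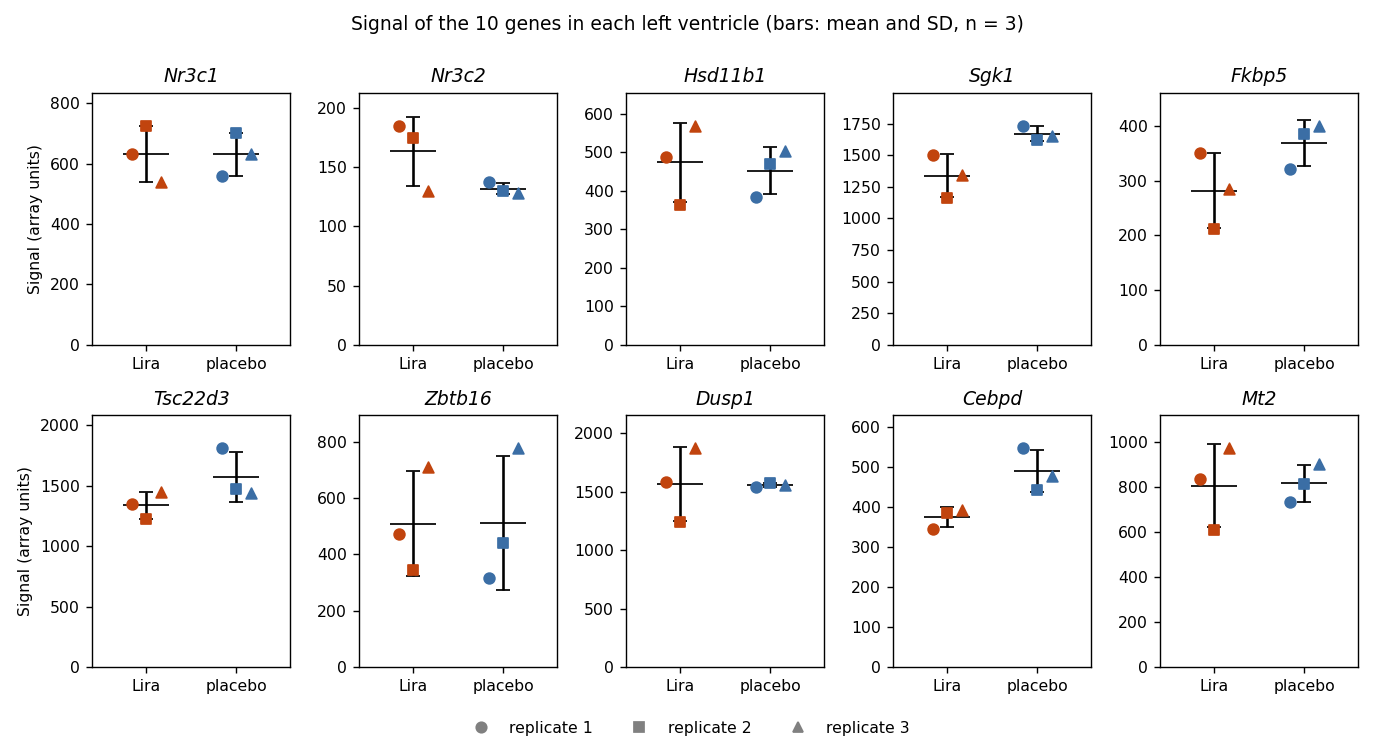
Signal of each gene's brightest probe set in array units (vertical axes, starting at 0) for the 3 Lira and 3 placebo mice, with the symbol giving the replicate number and black bars the mean and SD. Sgk1 and Cebpd are the genes whose groups do not overlap, and Zbtb16 differs more between mice than between groups.

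The receptors and the enzyme that feeds them come first. Nr3c1, the glucocorticoid receptor, had signals of 631.6, 725.9 and 538.8 in the 3 Lira mice and 560.9, 702.1 and 630.7 in the 3 placebo mice. The groups overlapped fully, and the log2 difference was -0.0025 ± 0.13 (SE), with a 95% interval from -0.27 to 0.27. Averaging its probe sets gave -0.18. Of the 6 probe sets 5 were bright enough to test, 3 with a negative and 2 with a positive difference. One of them had signals of 263.8, 271.0 and 238.5 with Lira, against 275.6, 314.8 and 314.9 with placebo, without overlap. Its log2 difference was -0.21 ± 0.12, with an adjusted p of 0.90 over 24461 probe sets in limma, and Lira values lay below all placebo values in 5.58% of those probe sets. None of the 21 tested probe sets of the 10 genes passed the adjusted threshold, as 0.00818% of all probe sets did.

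Nr3c2, the mineralocorticoid receptor, which also binds aldosterone, measured 184.9, 175.0 and 130.0 in the Lira mice and 137.0, 129.8 and 128.5 in the placebo mice. Lira replicates 1 and 2 lay above all placebo arrays, while Lira replicate 3 lay among them. The log2 difference was 0.27 ± 0.16, with a 95% interval from -0.07 to 0.60 and an adjusted p of 0.86 in limma. It was 0.41 without Lira replicate 3 and 0.18 without Lira replicate 1. Hsd11b1, the corticosterone-regenerating enzyme, measured 487.7, 363.1 and 568.4 with Lira and 384.5, 468.7 and 502.1 with placebo. Lira mice held both the lowest and the highest value, and the log2 difference was 0.05 ± 0.15, with a 95% interval from -0.28 to 0.38. Its opposite number Hsd11b2, which inactivates corticosterone in aldosterone-responsive epithelia, was too dim to test, at 10.1 to 21.3 units with Lira and 5.12 to 34.9 with placebo.

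Sgk1 encodes a kinase that regulates ion channels and transporters and is induced by both receptors. It measured 1506, 1166 and 1345 in the Lira mice and 1734, 1618 and 1657 in the placebo mice. All Lira values lay below all placebo values, with a gap of 112 units between the nearest mice. The means were 1339 ± 170 with Lira and 1670 ± 59.3 with placebo (SD, n = 3 each). The log2 difference was -0.32 ± 0.10, with a 95% interval from -0.54 to -0.10, an unadjusted p of 0.0077 and an adjusted p of 0.63 in limma. Of the 7 members with promoter windows, Sgk1 was the one with an exact match to the full response element. Cebpd, described next, had no window to search, and a link between the element and the Sgk1 difference was not tested.

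Cebpd, a basic leucine zipper transcription factor of the acute-phase response, measured 345.8, 386.4 and 393.0 in the Lira mice and 547.1, 443.2 and 478.1 in the placebo mice. Here too no Lira value reached a placebo value, and the gap was 50.3 units. This gave a log2 difference of -0.37 ± 0.12, with a 95% interval from -0.62 to -0.12, an unadjusted p of 0.0073 and an adjusted p of 0.62 in limma. The second Cebpd probe set was dimmer, with means of 0.755 times the placebo mean in the Lira group, overlapping groups and a log2 difference of -0.36 ± 0.25. Groups that did not overlap, with Lira lower, were found in these 2 of the 10 genes and in 5.46% of all tested genes.

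Fkbp5 encodes an Hsp90 co-chaperone that lowers the receptor's affinity for hormone and so closes a feedback loop. Its signals were 349.9, 211.8 and 284.6 in the Lira mice and 320.8, 384.7 and 400.6 in the placebo mice. Lira replicate 2 was the lowest array, while Lira replicate 1 exceeded placebo replicate 1, so the groups overlapped. The log2 difference was -0.39 ± 0.16, with a 95% interval from -0.74 to -0.04, an unadjusted p of 0.032 and an adjusted p of 0.79 in limma. Without Lira replicate 2 the log2 difference was -0.21. A second tested probe set gave -0.55 ± 0.36, with 11.1 units in Lira replicate 2 and 49.9 to 78.7 on the other arrays, and the remaining one was near the bottom of the signal range and not tested.

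Tsc22d3, known as GILZ, a leucine zipper protein that mediates part of the anti-inflammatory action of glucocorticoids, measured 1344, 1221 and 1447 in the Lira mice and 1808, 1473 and 1435 in the placebo mice. Placebo replicate 1 stood above the other arrays, and Lira replicate 3 exceeded placebo replicate 3. The log2 difference was -0.23 ± 0.11, with a 95% interval from -0.46 to 0.01 and an adjusted p of 0.83 in limma, and it was -0.12 without placebo replicate 1. The gene has 4 tested probe sets, and their differences ran from -0.23 to 0.32, with 2 of them below 0 and 2 above. Averaging the probe sets in place of taking the brightest gave a difference of -0.0049.

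Zbtb16, a zinc finger repressor also called PLZF, varied most between mice. It measured 472.9, 344.4 and 710.0 in the Lira mice and 317.4, 439.0 and 776.7 in the placebo mice, a range of 2.45-fold between the lowest and highest array. High and low values occurred in both groups, and the log2 difference was 0.03 ± 0.28, with a 95% interval from -0.57 to 0.62. The SD within groups was 0.57 on the log2 scale, beside a median of 0.19 over all tested genes, and 4.54% of them had a larger one. A second probe set had the same highest and lowest pairs of mice, with 485.1, 209.7 and 680.2 units with Lira and 256.9, 452.6 and 684.6 with placebo. The remaining, dim probe set measured 53.0, 52.1 and 44.9 with Lira and 4.50, 32.5 and 45.3 with placebo, with a log2 difference of 0.74 ± 0.36 and an adjusted p of 0.88 in limma.

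Dusp1, a phosphatase that switches off the stress kinases p38 and JNK, measured 1583, 1238 and 1870 in the Lira mice and 1542, 1571 and 1557 in the placebo mice. The placebo mice were almost equal, with an SD of 14.3 units, whereas the Lira mice lay on both sides of them, with an SD of 316. The log2 difference was -0.01 ± 0.13, with a 95% interval from -0.28 to 0.26. Mt2, a metallothionein that binds zinc and other metals, measured 837.4, 609.4 and 973.2 with Lira and 735.2, 814.5 and 901.7 with placebo. Its groups overlapped too, and the log2 difference was -0.04 ± 0.15, with a 95% interval from -0.36 to 0.28.

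**Figure D2:**
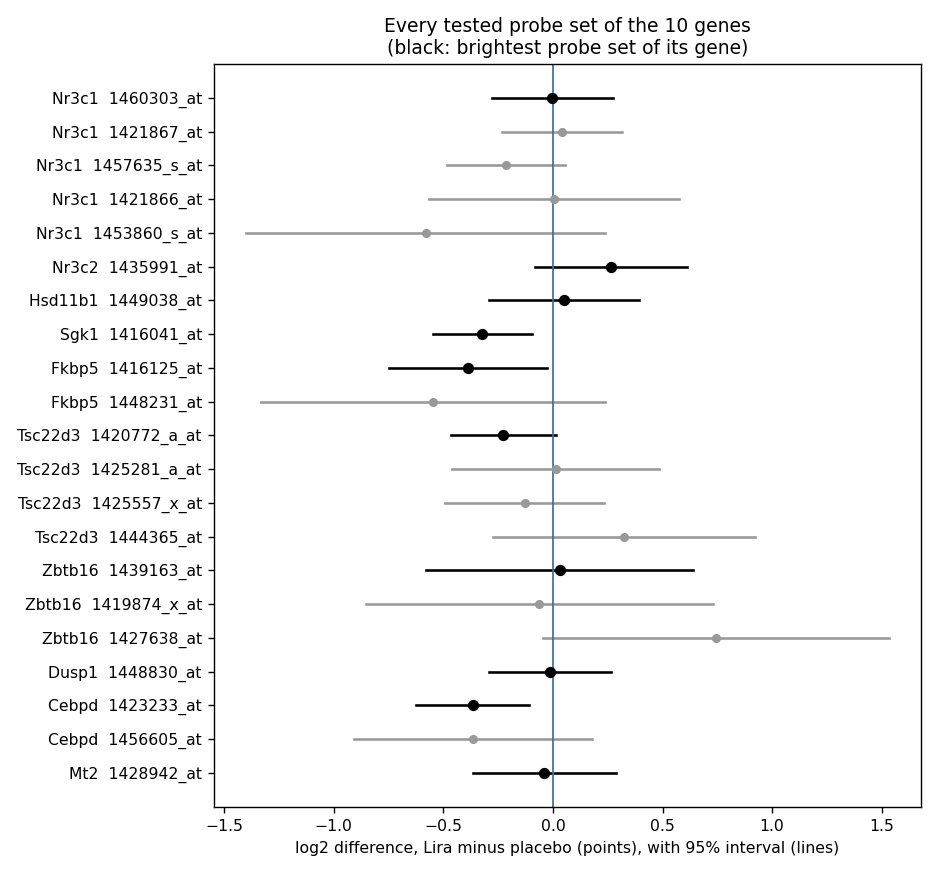
Log2 difference, Lira minus placebo, on the horizontal axis for each of the 21 tested probe sets of the 10 genes, with 95% intervals from the probe-set fit as lines. Black marks the brightest probe set of a gene, and the intervals of the brightest probe sets of Sgk1, Fkbp5 and Cebpd lie below 0 before adjustment.

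The members did not share 1 pattern over the mice. Lira replicate 2 was the lowest array for 6 of the 10 genes, namely Hsd11b1, Sgk1, Fkbp5, Tsc22d3, Dusp1 and Mt2. It was the lowest array for 15.2% of all tested genes and the highest for 21.8% of them, the most of any array. Its median signal over all probe sets was also the highest, at 39.6 units beside 28.6 to 36.4 on the others. The median deviation of the 10 genes from their own means was -0.32 on this array and between -0.06 and 0.14 on the other 5. Nr3c1 went the other way, with its highest signal, 725.9, in Lira replicate 2. Lira replicate 3 was highest for Hsd11b1, Dusp1 and Mt2, and placebo replicate 1 for Sgk1, Tsc22d3 and Cebpd.

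**Figure D3:**
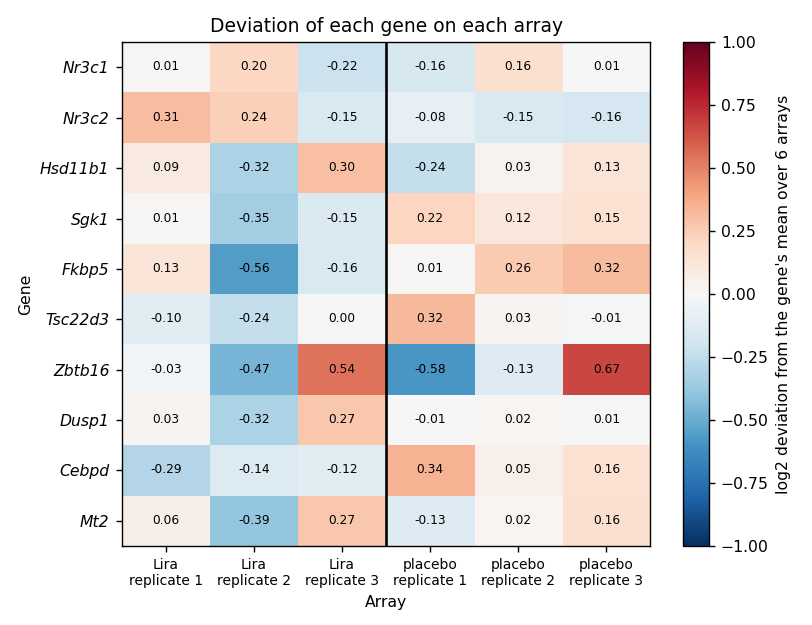
Log2 deviation of each gene (rows) from its mean over the 6 arrays (columns, Lira left of the line, placebo right), with red above and blue below the mean and the value in each cell. The column of Lira replicate 2 is below 0 for 8 of the 10 genes, with Fkbp5 at -0.56.

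Pairs of genes were compared over the 6 mice, with exact two-sided permutation tests adjusted over all 45 pairs. 0 pairs passed an adjusted p of 0.05, and 7 had an unadjusted p under 0.05. With 720 permutations of the 6 arrays, 1 pair on its own cannot reach that adjusted p over 45 pairs, however close its relation. The count of 0 therefore does not show that members vary independently. The closest pair was Hsd11b1 and Mt2, which ranked the 6 mice in the same order (Pearson r = 0.96, exact permutation p = 0.0014, adjusted p = 0.063; Spearman rho = 1.0, exact permutation p = 0.0028, adjusted p = 0.13). Without the 2 arrays farthest from the median of Hsd11b1 the r of this pair was 0.96, and on deviations from the group means it was 0.98. Hsd11b1, Mt2, Zbtb16 and Dusp1 gave 5 of the 7 pairs, among them Zbtb16 and Hsd11b1 at r = 0.88 and rho = 0.89 (exact permutation p = 0.039 and 0.033, adjusted p = 0.29 and 0.44), with r = 0.70 without the 2 farthest arrays.

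Sgk1 and Fkbp5 had an r of 0.87 and a rho of 0.66 (exact permutation p = 0.024 and 0.18, adjusted p = 0.25 and 0.66). This relation rests on Lira replicates 2 and 3, since r was -0.20 without them. Tsc22d3 and Cebpd had an r of 0.82 and a rho of 0.77 (exact permutation p = 0.044 and 0.10, adjusted p = 0.29 and 0.66). These values pool both groups, and on deviations from the group means r was 0.64 for this pair and 0.77 for Sgk1 and Fkbp5. Nr3c1 ran against Dusp1 with an r of -0.76 and a rho of -0.49 (exact permutation p = 0.061 and 0.36, adjusted p = 0.34 and 0.82), and r turned to 0.69 without the 2 farthest arrays. The genes whose signals followed Fkbp5 most closely were Unkl, Mob1b and Nt5dc3, with r of 0.996, 0.995 and 0.988 over 6 arrays. This is a description, since 24 of the tested genes reached an r of 0.95.

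**Figure D4:**
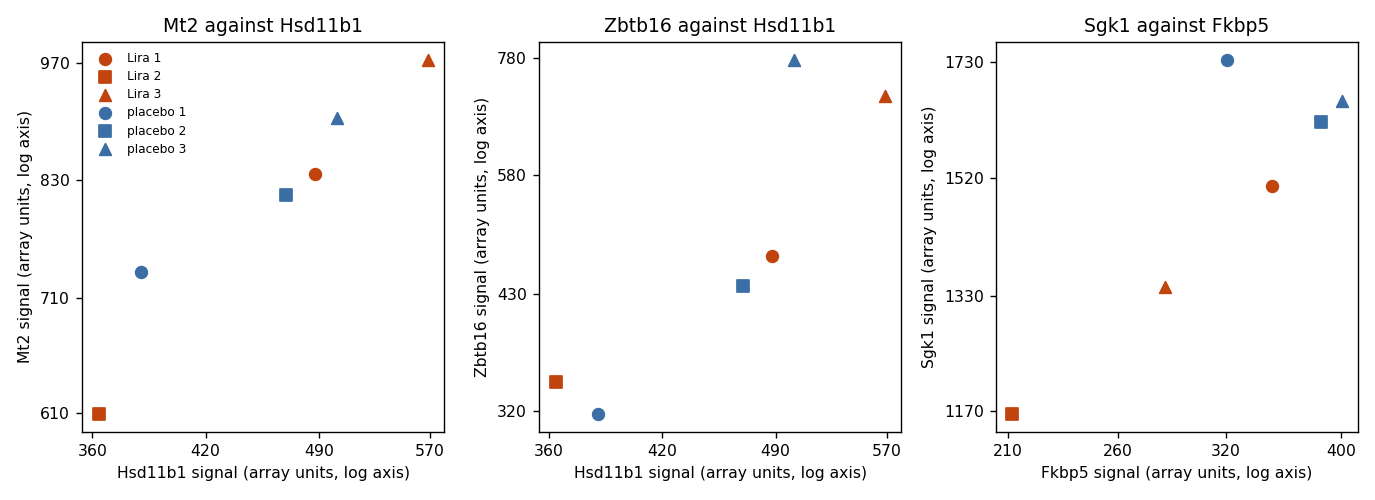
Signals in array units (log axes) of Mt2 and Zbtb16 against Hsd11b1 and of Sgk1 against Fkbp5, with 1 point per mouse, Lira in red and placebo in blue, and the symbol giving the replicate number. Mt2 and Hsd11b1 rank the mice alike, while in the Sgk1 panel Lira replicates 2 and 3 lie lowest.

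Other known glucocorticoid targets were read from a list of 30 genes, of which 27 were tested. 1 of them fell past the adjusted threshold and 0 rose past it. The gene that fell was Ddit4, an inhibitor of mTORC1 signalling, at 1289, 1200 and 1193 units in the Lira mice and 2347, 2003 and 1807 in the placebo mice, with an adjusted p of 0.023 in limma. Its log2 difference was -0.73 ± 0.10, and it missed the threshold when any array other than placebo replicate 3 was left out, at an adjusted p of 0.068 to 0.20. It also missed it with every probe set (0.067), averaged probe sets (0.12), median centring (0.083), no filter (0.082) and no variance trend (0.88). Differences were below 0 in 20 of the 27 genes, beside 48.0% of all tested genes, the median was -0.15 beside 0.01 over all genes, and leaving out single arrays gave medians between -0.21 and -0.11. At an unadjusted p under 0.05, 5 of the 27 were lower and 0 higher, beside 3.13% lower and 2.87% higher of all tested genes. Per1, a clock gene that glucocorticoids induce, measured 248.9, 371.1 and 300.0 with Lira and 590.3, 383.2 and 363.8 with placebo, with overlapping groups and an adjusted p of 0.69 in limma. Groups did not overlap in 2 of the 27 genes with Lira lower and in 1 with Lira higher, beside 5.46% and 5.99% of all tested genes. The higher one was Klf9, at 5467, 5109 and 5066 units with Lira and 4941, 4689 and 4433 with placebo (adjusted p = 0.84, limma).

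The chaperones that hold the receptor ready for hormone were tested for 11 of 14 listed genes. 0 passed the adjusted threshold, 2 were lower and 1 higher at an unadjusted p under 0.05 (3.13% and 2.87% of all tested genes), and the median log2 difference was -0.04. With single arrays left out this median ran from -0.10 to -0.02, and it was -0.13 with averaged probe sets. Hsp90aa1, the inducible Hsp90, measured 2144, 2210 and 2523 units with Lira and 2842, 2667 and 3635 with placebo, and the Hsp70 partner Dnaja1 measured 1155, 1586 and 1387 with Lira and 2011, 1625 and 2167 with placebo. Neither gene's groups overlapped, and their adjusted p was 0.55 and 0.52 in limma. Fkbp4, the co-chaperone that competes with the Fkbp5 product, had a log2 difference of -0.03 ± 0.12. Of 15 tested receptor coregulators 0 passed, 1 was higher and 0 lower at an unadjusted p under 0.05, and the median was 0.01, with a range of -0.06 to 0.09 when single arrays were left out. The one was Med14, a Mediator subunit, at 127.4, 123.5 and 142.7 units with Lira and 99.8, 98.9 and 95.3 with placebo (adjusted p = 0.77, limma). The coactivator and corepressor partner Nrip1 had an adjusted p of 0.89.

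Of 10 tested genes of steroid supply and clearance 0 passed the adjusted threshold and 0 had an unadjusted p under 0.05, and the median log2 difference was 0.05. Leaving out Lira replicate 2 gave -0.01, and leaving out Lira replicate 1 gave 0.12. Cbr1, a carbonyl reductase, measured 369.2, 366.9 and 387.2 units with Lira and 296.7, 317.4 and 333.0 with placebo, without overlap and with an adjusted p of 0.82 in limma. The adrenal gene Cyp11b1 was dim, at 5.49 to 21.6 units with Lira and 26.1 to 39.7 with placebo (adjusted p = 0.84, limma). Of 11 tested genes of the mineralocorticoid pathway 0 passed and 0 had an unadjusted p under 0.05, with a median of -0.06. Leaving out Lira replicate 3 gave a median of 0.0057, and leaving out Lira replicate 1 gave -0.01. Its smallest p-values belonged to Agt, the angiotensinogen gene, and Edn1, the endothelin gene, each with overlapping groups and an adjusted p of 0.83 in limma.

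Among relatives of the members 18 of 22 were tested, and 0 passed the adjusted threshold. At an unadjusted p under 0.05, 2 were lower and 1 higher, beside 3.13% and 2.87% of all tested genes. Of the 2 lower, Cebpb is also counted among the lower glucocorticoid targets above, since some genes are on more than 1 list. The median log2 difference was 0.02, and it turned negative without Lira replicate 2 (-0.06), Lira replicate 3 (-0.05), placebo replicate 1 or placebo replicate 3 (-0.03 each). It was 0.12 with averaged probe sets, -0.03 with no filter and -0.11 with a stricter one. Dusp8, a phosphatase of the Dusp1 family, measured 267.2, 211.9 and 313.0 units with Lira and 365.9, 386.5 and 377.4 with placebo, without overlap (adjusted p = 0.54, limma). Cebpb, the partner of Cebpd, measured 1453, 1264 and 1660 with Lira and 1854, 1649 and 1727 with placebo, with an adjusted p of 0.76. Mt1, the neighbour and close relative of Mt2, measured 5344, 5037 and 7558 with Lira and 6086, 6274 and 8108 with placebo, and its log2 difference was -0.20 ± 0.14. Mt1 was named after its values were seen, and probes for the 2 metallothioneins may not tell their transcripts apart.

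The summed signals of 3 lists of cell type markers did not overlap between the groups, while 0 of 52 tested markers of any cell type passed the adjusted threshold in limma. Among all tested genes, Lira values lay above all placebo values in 5.99% and below them in 5.46%, though these are shares of single genes and not of sums. All 8 macrophage markers had a probe set and summed to 3122 to 3575 units with Lira and 2864 to 3015 with placebo. Taken singly, 3 of the 8 had all Lira values above all placebo values and 0 had all of them below. Of their log2 differences 7 were above 0 and 1 below. All 8 smooth muscle and pericyte markers summed to 14615 to 16602 with Lira and 12939 to 14348 with placebo, where Acta2 had 3377 units in Lira replicate 1. The sums of the other 7 overlapped, at 13036 to 14031 with Lira and 11864 to 13225 with placebo. The 5 of 7 atrial markers with a probe set summed to 1618 to 2268 with Lira and 2787 to 3218 with placebo. Nppa made up most of this sum, at 1386 to 2142 units with Lira and 2610 to 3038 with placebo, so the separation is that of 1 gene. Myl4, another atrial light chain, lay the other way, at 109 to 120 units with Lira and 77.1 to 107.6 with placebo, and the dim Myl7 had 1.44 to 3.34 units with Lira and 2.18 to 17.3 with placebo. The part of these cell types in the differences of the members was not tested. Sums overlapped between the groups for the markers of cardiomyocytes, endothelial cells, fibroblasts, fat cells, neutrophils, lymphocytes and red blood cells.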

How the data were processed

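Per the submitters' processing notes, the authors used Affymetrix Expression Console to turn each array into the deposited intensities, which are linear and hold 1 value for each probe set. Which version and algorithm they used is not stated here. Each array was scaled to a trimmed mean of 150 (2% cut at each end), as checked on the values, so changes in total RNA cannot be seen. Without detection calls a dim signal cannot be told from background.

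Of 45101 probe sets, 64 controls, 932 with several genes and 9160 others not in the name table were left out. Of the 34945 with 1 gene, 99.42% had a gene ID in RefSeq GRCm38.p6, which set the symbols. Each of 18193 genes was represented by its brightest probe set, and genes in the lowest 30% by mean log2(signal + 16) were dropped, which leaves 12735. The 2 groups were compared by limma (version 3.58.1, R 4.3.3), using lmFit and trended eBayes, with two-sided p-values adjusted by the Benjamini-Hochberg method and called at 0.05. The same fit was run on 24461 probe sets. Alternatives tried were other normalisations, filters, pseudocounts and priors, averaged probe sets, array weights, a replicate block, and each array left out.

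The member genes, the lists and the tests were chosen with earlier results of these data known, so counts over them are descriptions. The text names all members, the 2 genes with the smallest p and any gene past the threshold on each list, and the 3 genes most like Fkbp5. Beyond this rule it names Hsd11b2, Fkbp4, Mt1, Gapdh, Actb, Acta2, Myl7 and Nppa, with Klf9 and Myl4 added to show genes that ran against their lists. Promoter windows come from RefSeq, build GRCm38.p6, and motifs were searched on both strands.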

Additional observations from a re-analysis of the deposited data

How the results depend on the processing

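0 of the 10 genes and 0 of their probe sets passed the adjusted threshold under any alternative run in limma, with 1 to 4 genes at an unadjusted p under 0.05. The differences of Sgk1, Cebpd, Fkbp5, Tsc22d3 and Nr3c2 kept their sign under all 18 alternatives, as did that of Ddit4. The filters, the priors, the replicate block and the fit on every probe set leave these differences unchanged. Only the other alternatives could turn a sign, and Tsc22d3 came to -0.0049 with averaged probe sets. Cebpd had an unadjusted p under 0.05 in 18 of the 18 alternatives, Sgk1 in 17 and Fkbp5 in 11. The median over the 10 genes ran from -0.21 (without Lira replicate 3) to 0.019 (without Lira replicate 2). Differences near 0 changed sign when single arrays were left out, with ranges of -0.11 to 0.10 for Nr3c1, -0.090 to 0.22 for Hsd11b1, -0.25 to 0.37 for Zbtb16, -0.15 to 0.14 for Dusp1 and -0.18 to 0.15 for Mt2, and Nr3c1 gave 0.0045 with median centring. The cause was not tested.

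Of all genes 7 passed, against 2 of all probe sets, 0 with probe sets averaged per gene, 1 with no filter, 0 without the variance trend, 4 with the replicate block, and 1 to 9 with single arrays left out. With averaged probe sets 684 genes had an unadjusted p under 0.05, and without the trend 687. Same-numbered arrays did not deviate together, with correlations of -0.04, 0.09 and -0.09. These values cannot exclude that same-numbered mice were paired in some way. The replicate block moved 0 member genes past the threshold. For pairs of genes, 0 passed with a pseudocount of 1 as well, where the same limit of 720 permutations applies. No count was possible without the 2 farthest arrays or on group deviations, where too few permutations remain for 45 pairs.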
